A study of Macaca mulatta with 24 samples.

Results

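Gene expression in the ileum of rhesus macaques was compared between day 7 and day 4 after a single total-body irradiation (TBI) with 7.4 Gy. The comparison held 4 animals killed on day 7 and 4 other animals killed on day 4, selected by their sample titles, so 8 of the 24 ileum arrays of the series entered the difference itself. All were young-adult males without known disease, given cobalt-60 gamma rays, and no strain, genotype or further treatment was named. A sham-irradiated group of 4 animals, labelled day 4, served as the only control for every day, and it served here to place each difference, as a return toward the control level, a move past it or a move away from it. Its arrays, like all 24, also entered the filter on dim probes and the estimate of the spread. Arrays from 4 animals at day 7 and 4 at day 4 after 6.7 Gy gave the same contrast at a lower dose, and 2 animals at day 12 after 7.4 Gy gave a later value. Each animal gave a piece of whole gut wall of its ileum, with mucosa, immune cells, nerves and muscle together. In such bulk tissue, fewer cells of a type and less RNA per cell cannot be told apart. No animal was sampled at both days, so the difference is between animals and not within them.

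The small intestinal epithelium is renewed from dividing stem and progenitor cells in the crypts, whose daughters move up the villus as absorptive enterocytes or secretory cells. Ionising radiation breaks DNA, the protein p53 then switches on genes that arrest or kill cells, crypt divisions stop, and the villi lose cells until surviving crypts regrow. Lymphocytes, which are abundant in the ileum and its Peyer's patches, are among the most radiosensitive cells of the body.

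Levels are given on a log2 scale relative to the 75th percentile of each array, so a level of 0 equals that percentile and a difference of 1 is a 2-fold change. A probe was called when its adjusted p was under 0.05 in limma and its change was at least 2-fold. On the 24 arrays 72.7% to 88.1% of probes were well above background, and the range was 76.1% to 86.8% at day 4 and 76.5% to 87% at day 7 after 7.4 Gy. The arrays of both 7.4 Gy groups and the controls showed ileal epithelium: FABP6, the ileal bile acid binding protein, stood at a mean of 8.74 in controls, 8.47 at day 4 and 8.83 at day 7. Of 8 ileal epithelium markers, 7 were well above background on all of those arrays, the exception being the dim FABP2 probe. Of 12 markers of other organs 6 were too. Their control means were 3.88 for the trypsinogen PRSS1, 3.20 for CA4, 1.06 for TTR, 0.26 for AMY2B, -2.38 for PGC and -2.74 for APOH. The pancreas enzyme CPA1 stood at -5.14 in controls, well above background on all 4 control arrays, and the stomach proton pump ATP4A at -6.66, on 2 of them. Day 4 arrays all sat at position 2 of their slides and day 7 arrays at position 3 or 4, so day and position cannot be told apart. Slides 5 and 6 held an array of each day, and day 4 and day 7 each had 2 arrays in each of the 2 scan days. The 4 control arrays all lay at position 1 and in the first scan day, so position cannot be told apart from the difference to controls either.

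Between days 4 and 7, 340 of 36108 probes tested changed, 214 upward and 126 downward. This is 0.593% of probes higher and 0.349% lower, and with one probe per gene 95 of 14266 genes (0.666%) were higher and 55 (0.386%) lower. Named genes that rose include FUT2, CHP2, SLC26A2 and VIL1 of the epithelium, which had been below the controls at day 4. Named genes that fell include GDF15 and PLK2 of the p53 response and the chemokine CCL2, which had been above the controls at day 4, and ICOS of T cells, which ended below the controls at day 7. The medians of the 214 rising probes were -1.10 relative to controls at day 4 and 0.22 at day 7, and those of the 126 falling probes were 0.84 and -0.53. The 4 day 7 animals lay wholly above or wholly below the 4 day 4 animals for 201 of the rising and 119 of the falling probes, where 6.55% and 6.4% of all probes did so in those directions. The probes were selected by this difference on the same arrays, so the lack of overlap follows largely from the selection and is no separate support.

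Each called probe was placed by its tests against the controls, which share their arrays with the difference, so the places are a description with no test of their own. At day 4, 577 probes were higher and 265 lower than in controls (1.6% and 0.734%), and at day 7 41 were higher and 164 lower (0.114% and 0.454%). A return was a probe called against controls at day 4 and no longer at day 7, and 108 of the 214 rising probes (50.5%) and 47 of the 126 falling probes (37.3%) were returns. Their day 7 means lay within the range of the 4 control animals for 93 of the 108 and 26 of the 47, and 6 of the 47 still had an adjusted p under 0.05 against controls at less than 2-fold. A partial return, still called at day 7 on the side of day 4, was seen for 6 falling probes and no rising one. Probes newly beyond the controls at day 7, called on the side of the change at day 7 but not at day 4, were 2 rising (0.935%) and 28 falling (22.2%). Both rising probes crossed the control mean between the days. Of the 28 falling probes 6 crossed it, and 22 had a day 4 mean already below it, without a call, and moved further away. In addition, 1 falling probe (of TLR10, dim on both days) was called below the controls on both days and lower still at day 7. The remaining 104 rising and 44 falling probes were called against controls on neither day (41 and 4 of them had a day 4 adjusted p under 0.05 at less than 2-fold) and could not be placed by this rule, although day 4 lay on the side opposite the change for all 148. By means alone, day 7 was closer to the controls than day 4 for 199 of 214 rising probes (93%) and for 73 of 126 falling probes (57.9%).

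**Figure D1:**
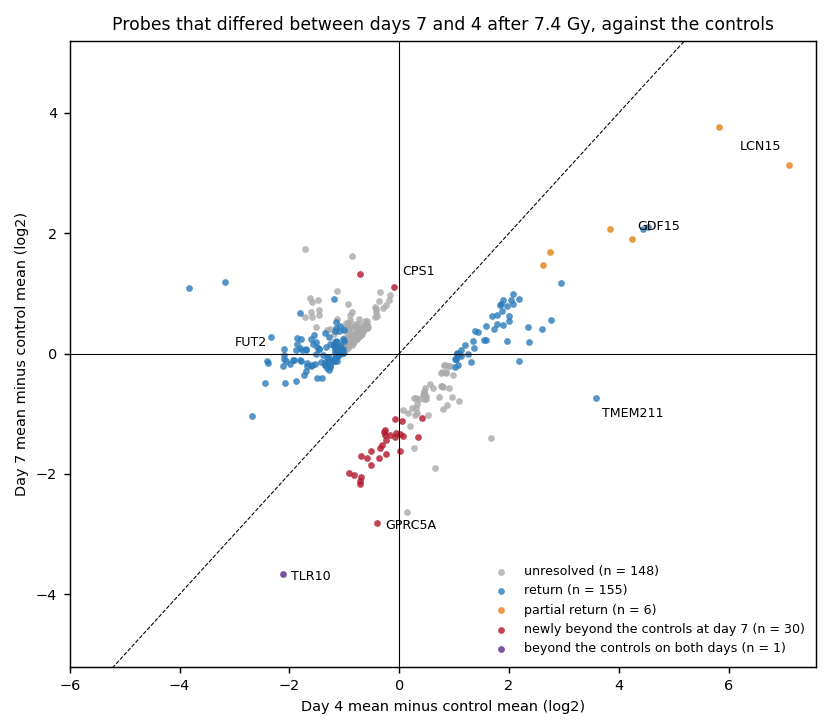
Each point is one of the 340 probes called between days 7 and 4 after 7.4 Gy. The horizontal axis is the day 4 mean minus the control mean and the vertical axis the day 7 mean minus the control mean, both log2. The dashed line marks no change between the days, and colours give the place against the controls. Most rising probes lie left of 0 at day 4 and near 0 at day 7, while the 28 falling probes in red were called below the controls at day 7 and not at day 4, 22 of them with a day 4 mean already under 0.

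The called counts depended on single animals. Without day 4 animal 1 the count was 176 in place of 340, with 96 higher and 80 lower, and without any other animal it was 242 to 376, with 141 higher without day 7 animal 2. Returns and partial returns numbered 161 in all, 69 without day 4 animal 1 and 100 without day 7 animal 3. The 30 probes newly beyond the controls became 17 without day 4 animal 4, 19 without day 7 animal 1, 17 without day 7 animal 4 and 16 without control animal 1.

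The largest named rises were of CYP2D6 (2.48), FUT2, CHP2, DAK (1.96), SLC26A2, GSTA1, NXNL1 (1.87), TCEA3, TMED6 (1.76) and SLC26A3, in that order. A second NXNL1 probe differed by 1.20 and was not called. FUT2, the enzyme that adds fucose to gut surface sugars in secretors, measured -1.18, -1.54, -1.31 and -1.34 in the 4 controls, -4.49, -2.61, -2.73 and -3.91 at day 4 and -1.44, -0.98, -1.31 and -1.76 at day 7. The groups at days 4 and 7 did not overlap, and all day 7 animals lay among or near the control values. The difference was 2.06 ± 0.32 (SE, adjusted p = 0.002), a 4.17-fold rise that undid 98.7% of the day 4 deficit, and the day 7 mean differed from controls by -0.03. CHP2, a calcium-binding partner of sodium/proton exchangers, measured -1.63, -0.13, -0.08 and 0.21 at day 4 and 1.67, 2.14, 1.39 and 1.32 at day 7, against 0.99 to 1.69 in controls. It rose by 2.04 ± 0.34 (SE, adjusted p = 0.0038), and its second probe rose by 2.03. SLC26A2, a sulphate transporter, rose by 1.96 ± 0.46 (SE, adjusted p = 0.025) from a day 4 level that was -2.44 from controls. SLC26A3, the chloride/bicarbonate exchanger of the enterocyte surface, measured -1.87, -0.41, -0.82 and 0.08 at day 4 and 0.55, 0.51, 1.51 and 1.29 at day 7, with the highest day 4 animal below the lowest day 7 animal. Its rise of 1.72 ± 0.44 (SE, adjusted p = 0.035) followed a day 4 deficit of -1.32 that itself missed the test (adjusted p = 0.075), so it could not be placed by the tests. By means, SLC26A3 crossed the control level and stood 0.40 above it at day 7, without a call. CA12, a membrane carbonic anhydrase, rose by 1.53 ± 0.19 (SE, adjusted p = 0.00061) and stood 0.08 from controls at day 7.

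VIL1, KLF5, TCEA3, NLRP6, BCL2L14 and FGFBP1 also rose. VIL1, which encodes villin of the microvillus core, measured 4.24, 3.89, 3.43 and 3.70 in controls, 2.10, 2.72, 2.71 and 2.63 at day 4 and 3.58, 3.43, 3.65 and 3.51 at day 7. The 4 day 7 animals were tightly grouped at the lower part of the control range, and the rise was 1.004 ± 0.19 (SE, adjusted p = 0.0087). KLF5, a transcription factor of proliferating crypt cells, fell by 1.14 on the log2 scale at day 4 against controls and rose by 1.15 ± 0.16 (SE, adjusted p = 0.0011) by day 7. Its day 7 mean was 0.01 from the controls. TCEA3, a transcription elongation factor, rose by 1.84 ± 0.31 (SE, adjusted p = 0.004), and its 2 other probes rose by 1.73 and 1.33. NLRP6, an innate sensor of the gut epithelium, measured -1.69, -1.12, -1.14 and -1.16 at day 4 and 0.24, -0.11, -0.24 and -0.30 at day 7. It rose by 1.18 ± 0.20 (SE, adjusted p = 0.004), from an adjusted p of 0.0086 and a difference of -0.97 at day 4, just under the 2-fold limit. BCL2L14, a BCL2 relative among the cell death genes, rose by 1.68 ± 0.26 (SE, adjusted p = 0.002). It had been called below the controls at day 4 and was not called at day 7. FGFBP1, a carrier of fibroblast growth factors, rose by 1.65 ± 0.40 (SE, adjusted p = 0.028) but its day 7 mean was still -1.04 from controls (adjusted p = 0.26).

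GSTA1, CYP2D6, CAT, IDH1, ALDH1L2 and CPS1, which encode enzymes, rose as well. GSTA1, a glutathione transferase that detoxifies lipid peroxidation products, measured 5.66, 4.79, 4.01 and 4.50 in controls, 1.41, 3.65, 4.05 and 2.60 at day 4 and 4.49, 5.001, 4.995 and 4.86 at day 7. Day 4 animals spread over a wide range while the day 7 animals lay close together, and the rise was 1.91 ± 0.46 (SE, adjusted p = 0.028), while a second probe differed by 1.77 and was not called. CYP2D6, a drug-metabolising cytochrome, rose by 2.48 ± 0.61 (SE, adjusted p = 0.031) and had a day 7 mean 1.62 above controls that missed the test (adjusted p = 0.25). GSTA1 and CYP2D6 have close relatives in the genome, and the probes may read more than one of them. CAT, which encodes catalase, rose by 1.28 ± 0.25 (SE, adjusted p = 0.0096) on its brightest probe, and a second probe differed by 0.82 (adjusted p = 0.10) and was not called. IDH1, a cytosolic source of NADPH, rose by 1.01 ± 0.16 (SE, adjusted p = 0.0024). ALDH1L2, a mitochondrial folate enzyme, rose by 1.52 ± 0.36 (SE, adjusted p = 0.026) after a day 4 deficit of -1.68. CPS1, the first enzyme of the urea cycle, was the one named rising gene newly above the controls at day 7. It measured 2.88, 3.00, 2.66 and 2.02 in controls, 2.54, 2.15, 3.10 and 2.42 at day 4 and 3.53, 3.93, 3.83 and 3.70 at day 7, so day 4 was at the control level and all 4 day 7 animals were above every control. Its rise was 1.19 ± 0.23 (SE, adjusted p = 0.0096) and its day 7 excess over controls was 1.11 (adjusted p = 0.023), while its second probe differed by 0.61 between days and was not called.

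The medians of the epithelial gene lists were smaller than these single differences. Of 41 tested genes of enterocyte digestion and uptake, 4 rose (SLC26A3, GDA, FABP1 and VIL1) and 1 fell (SLC6A19), where 0.666% and 0.386% of all genes did. Each of the 4 rises lost its call without day 4 animal 1, and again without day 7 animal 3. The list was split, with 22 of 41 differences above 0, where 48.8% of all genes were. The median difference was 0.13, against -0.01 over all 14266 genes. LCT, the lactase gene, had been called 1.94 above controls at day 4 and differed by -0.98 ± 0.49 (SE, adjusted p = 0.29) between the days. FABP1, a fatty acid binding protein, measured 4.67, 5.42, 5.10 and 5.65 at day 4 and 5.93, 5.93, 6.46 and 6.81 at day 7 and rose by 1.07 ± 0.28 (SE, adjusted p = 0.038). Of 25 genes of fat absorption, 2 rose (CES2 and FABP1) with a list median of 0.13. CES2, an intestinal carboxylesterase, rose by 1.21 and stood 0.04 from controls at day 7. None of 55 respiratory chain genes was called, yet 53 of the 55 had positive differences, with a median of 0.41 against -0.40 at day 4 and 0.02 at day 7 relative to controls. Of 47 genes of mitosis, 44 had positive differences and none was called. Their median difference was 0.38, with day 4 at 0.04 and day 7 at 0.46 relative to controls. None of 44 DNA replication genes (median -0.02), 14 goblet cell genes (0.01), 21 enteroendocrine genes (0.20), 25 tight junction genes (0.10), 12 bile acid genes (0.16) or 23 cholesterol genes (0.11) was called in either direction. LGR5, a marker of crypt stem cells, differed by -0.13 ± 0.14 (SE, adjusted p = 0.67), and FABP6 by 0.36 ± 0.23 (SE, adjusted p = 0.43). MUC2, the main goblet cell mucin, differed by -0.43 ± 0.29 (SE, adjusted p = 0.45).

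With each of the 8 animals left out in turn, the rises of FUT2, CHP2, TCEA3, BCL2L14, KLF5, NLRP6, CA12, CAT and CPS1 stayed called. Named animals were each left out singly, with the range of the difference over the 8 fits in parentheses. The call was lost for SLC26A2 (1.57 to 2.34) without day 4 animal 1 or day 7 animals 1 and 3, for VIL1 (0.86 to 1.06) without day 4 animal 1 or day 7 animals 1 and 3, for CES2 (1.07 to 1.34) without day 4 animals 1 and 3 or day 7 animal 3 and for IDH1 (0.90 to 1.08) without day 4 animal 1 or day 7 animal 1. SLC26A3 (1.35 to 2.003), GSTA1 (1.41 to 2.29), CYP2D6 (2.08 to 2.89), FABP1 (0.89 to 1.22), ALDH1L2 (1.30 to 1.70) and FGFBP1 (1.30 to 1.91) each lost it for 5 of the 8 animals, day 4 animal 1 among them for all 6. TMED6 stayed called in all 8 fits, NXNL1 (1.57 to 2.13) in 3 and DAK (1.55 to 2.26) in 2, both losing the call without day 4 animal 1.

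Of 39 p53 targets tested, 4 fell (GDF15, PLK2, GADD45A and ZMAT3) and 1 rose (CES2), where 0.386% of all genes fell and 0.666% rose, and 3 were called above the controls at day 7. GDF15, a stress cytokine and p53 target, measured -0.27, -0.30, -0.23 and 0.08 in controls, 4.15, 4.09, 4.65 and 3.33 at day 4 and 2.15, 2.14, 0.79 and 1.84 at day 7. The 3 groups did not overlap. It fell by 2.33 ± 0.35 (SE, adjusted p = 0.0018), a 5.01-fold drop that undid 54.9% of the day 4 rise, and day 7 remained 1.91 above controls (adjusted p = 0.0072). PLK2, a p53-induced kinase, measured 0.15, -0.03, 0.22 and -0.30 at day 4 and -1.02, -2.08, -1.42 and -1.23 at day 7, against -2.31 to -1.58 in controls. It fell by 1.45 ± 0.23 (SE, adjusted p = 0.0031) and was no longer called against controls. ZMAT3, an RNA-binding p53 target, changed by -1.01 ± 0.15 (SE, adjusted p = 0.0015) and counted as a return, although its day 7 mean was still 0.89 above controls with an adjusted p of 0.0045. DDB2, a sensor of DNA lesions, changed by -0.98 ± 0.22 (SE, adjusted p = 0.017) on its brightest probe, just short of 2-fold, and by -1.15 on the other, which was a partial return. All 4 of its day 7 animals (2.96 to 3.15) lay above all 4 controls (0.98 to 1.80). EDA2R, a death receptor of the p53 response, measured 1.22, 0.46, 0.89 and 0.77 at day 4 and -0.14, -0.37, -0.01 and 0.18 at day 7 against -3.69 to -2.39 in controls. Its difference of -0.92 ± 0.29 (SE, adjusted p = 0.081) missed the test and day 7 stayed 2.73 above controls. GADD45A, a growth arrest gene, changed by -1.11 ± 0.21 (SE, adjusted p = 0.0087) and went from 0.46 to -0.65 relative to controls, neither of them called.

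The median of the p53 list was -0.28, with 28 of 39 differences below 0, where 48.8% of all genes had differences above 0. Against controls 9 of the 39 were higher at day 4 and 3 at day 7, where 1.86% and 0.161% of all genes were. CDKN1A, the cell cycle inhibitor p21, differed by -0.38 ± 0.23 (SE, adjusted p = 0.39), and FAS, a death receptor, by -0.76 ± 0.17 (SE, adjusted p = 0.018), under the 2-fold limit. MDM2, the ubiquitin ligase that degrades p53, gave 2 readings: -0.21 ± 0.18 (SE, adjusted p = 0.57) on its brightest probe, and -1.25 with an adjusted p of 0.00072 on a dimmer one that had stood 2.08 above controls at day 4. The falls of GDF15, PLK2 and GADD45A stayed called without any one of the 8 animals, and ZMAT3 (-1.06 to -0.91) lost its call without day 4 animal 2 or day 7 animal 2.

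The largest named falls were of TMEM211 and LCN15, both dim in the control ileum. LCN15, a secreted lipocalin, measured -6.04, -5.51, -6.21 and -5.12 in controls, 0.90, 1.02, 1.64 and 1.96 at day 4 and -3.34, -1.07, -2.80 and -3.13 at day 7. It had risen by 7.10 at day 4, fell by 3.96 ± 0.55 (SE, adjusted p = 0.0011), and all day 7 animals still lay above all controls (3.13, adjusted p = 0.0054). TMEM211, a membrane protein of unclear function, measured -3.28, -2.34, -1.65 and -2.79 at day 4 and -7.35, -6.06, -7.37 and -6.61 at day 7. It fell by 4.33 ± 0.57 (SE, adjusted p = 0.00083) to a level at which 1 of 4 day 7 arrays and 2 of 4 control arrays were well above background, so the size of the fall and its rank rest on dim signals. Over all settings run, the smallest TMEM211 difference was -1.70. CST6, a cysteine protease inhibitor, went from 4.53 above controls at day 4 to 2.10 at day 7 (adjusted p = 0.089), a change of -2.43 ± 0.57 (SE, adjusted p = 0.024). PSD2, an exchange factor for the small GTPase ARF6, changed by -1.78 ± 0.43 (SE, adjusted p = 0.027) and was still called above controls at day 7. Only 2 of 4 control arrays were well above background for it, so the size of its difference from controls rests on dim signals. SPMIP11, named for a sperm microtubule protein, fell by 2.18 ± 0.30 (SE, adjusted p = 0.001) to 0.19 from controls. The calls of LCN15, TMEM211 and SPMIP11 stayed with any one animal left out, whereas CST6 (-2.70 to -2.16) lost its call without day 4 animals 1 and 3 or day 7 animals 1, 2 and 3, and PSD2 (-1.87 to -1.64) without any animal but day 7 animal 4. OLFM4, a crypt gene, varied widely, with -3.03, -4.44, -3.63 and -5.28 at day 4 and -4.81, -2.88, -7.19 and -4.96 at day 7, and its difference of -0.87 ± 1.34 (SE, adjusted p = 0.77) was within that spread.

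**Figure D2:**
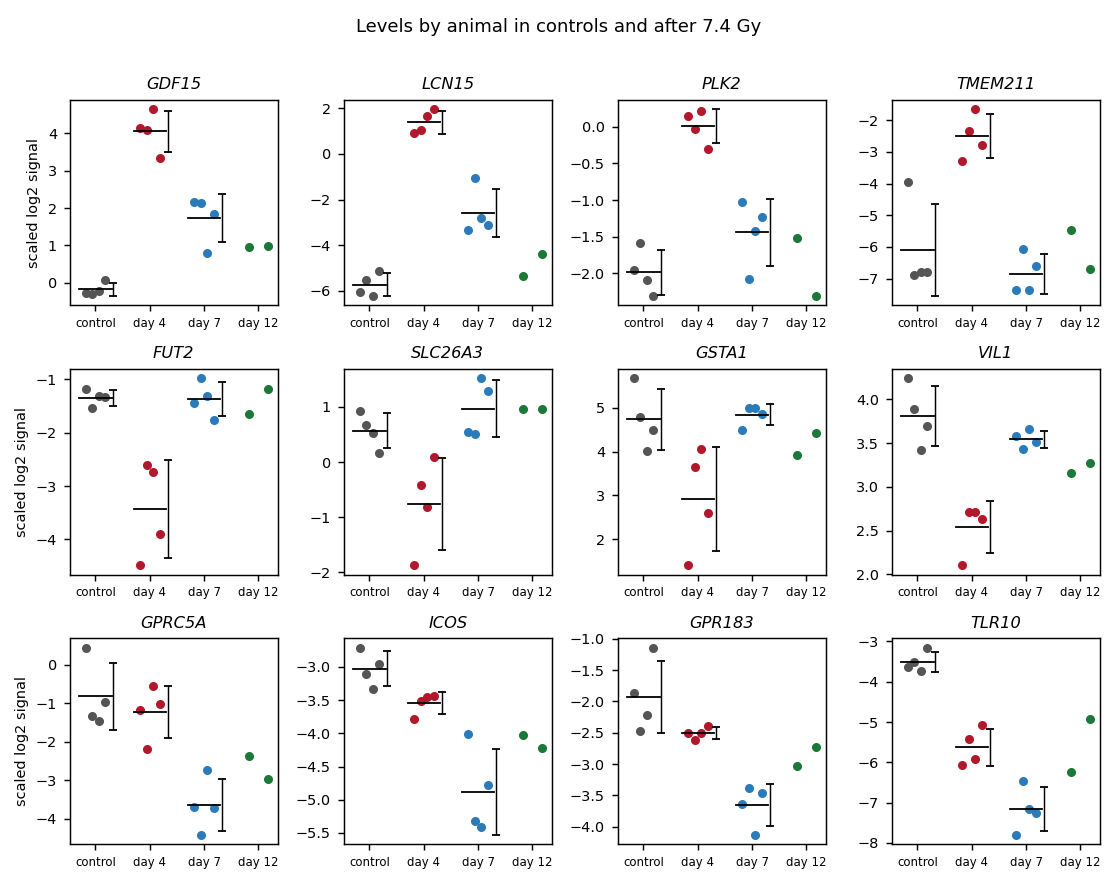
Scaled log2 signal of the genes named above each panel in each animal, for 4 controls, 4 animals at day 4, 4 at day 7 and 2 at day 12 after 7.4 Gy. Horizontal lines are group means and error bars SD of the groups of 4. The top row fell after day 4 (GDF15 and LCN15 without reaching the controls), and the middle row rose to the control range (SLC26A3 to a mean just above it). The bottom row ended below the controls at day 7.

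CCL2, IER3, DARC and CH25H were above the controls at day 4 and fell. CCL2, which attracts monocytes, measured -2.48, -2.84, -2.50 and -1.79 in controls, -0.69, -0.11, -0.30 and -1.01 at day 4 and -1.43, -1.37, -2.54 and -1.42 at day 7. Days 4 and 7 did not overlap, day 7 animal 3 was within the control range and the other 3 above every control, and the change was -1.16 ± 0.30 (SE, adjusted p = 0.034). IER3, an early-response survival gene, changed by -1.27 ± 0.32 (SE, adjusted p = 0.033) and ended -0.01 from controls. DARC (now named ACKR1), the chemokine-binding receptor of venules, measured 1.58, 1.71, 1.32 and 1.26 at day 4 and 0.20, 0.68, 0.27 and 0.18 at day 7 and changed by -1.14 ± 0.24 (SE, adjusted p = 0.013). CH25H makes 25-hydroxycholesterol, the precursor of the oxysterol that the lymphocyte receptor GPR183 senses. It changed by -1.14 ± 0.19 (SE, adjusted p = 0.0038), from 1.78 above controls at day 4 to 0.64 at day 7. All day 7 animals were still above all controls for both DARC and CH25H, without a call. ACKR4, which scavenges CCL19 and CCL21, moved the other way, by 1.40 ± 0.27 (SE, adjusted p = 0.0084), and CCL21, which guides lymphocytes and dendritic cells, by -0.83 ± 0.20 (SE, adjusted p = 0.026), under the 2-fold limit. CCL19 differed by -1.41 ± 0.42 (SE, adjusted p = 0.068), and CXCL8, CXCL10, EGR1 and MYC by -0.80, -0.48, -0.81 and -0.51, with no adjusted p under 0.05.

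Over all genes 0.666% rose, 0.386% fell and 48.8% had differences above 0, against which the lists here are read. Of the lists, 3 of 43 TNF and NF-kB targets fell (BCL2A1, IER3 and CCL2), with a median of -0.39 and 35 of 43 differences below 0. Of 25 immediate early genes, 1 fell and 22 had differences below 0, with a median of -0.46. Of 43 chemokine genes and receptors, 1 rose and 1 fell, with a median of -0.51. Of 42 interferon-stimulated genes, 1 fell: OASL, an antiviral protein, by 1.54 ± 0.37 (SE, adjusted p = 0.027). None of 39 macrophage genes was called, with a median of -0.46, and 5 of them had been called above the controls at day 4 and none at day 7, where 1.86% and 0.161% of all genes were. DARC and CH25H stayed called without any one animal. CCL2 (-1.33 to -0.88) lost its call without day 4 animals 1, 2 and 3 or day 7 animal 3, IER3 (-1.53 to -1.06) without day 4 animals 1 and 3 or day 7 animals 1, 2, 3 and 4, and OASL (-1.66 to -1.25) without day 4 animals 1 and 3 or day 7 animal 4.

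Stromal, muscle and nerve lists had medians below 0, and few of their genes were called. The median difference was -0.40 over 38 collagen and matrix genes, -0.42 over 30 matrix proteases and inhibitors, -0.51 over 21 smooth muscle genes, -0.42 over 26 nerve and glia genes and -0.40 over 30 endothelial genes. Differences were below 0 for 36, 24, 20, 19 and 27 of them in that order, where 48.8% of all genes had differences above 0. Only NEFM, a neurofilament (3.85% of its list), and KDR, the main VEGF receptor (3.33%), were called, where 0.386% of all genes fell. KDR measured -0.73, -0.99, -1.30 and -1.27 at day 4 and -1.95, -3.00, -2.02 and -2.16 at day 7 against -1.73 to -1.09 in controls. It changed by -1.21 ± 0.24 (SE, adjusted p = 0.01), from 0.31 to -0.90 relative to controls, and its dimmer probe by -0.53. NEFM returned, from 1.55 above controls at day 4 to 0.22 at day 7. F2R, a thrombin receptor, changed by -1.14 ± 0.27 (SE, adjusted p = 0.023) and BMP2, a secreted growth factor, by -1.15 ± 0.28 (SE, adjusted p = 0.029), both ending below the control mean without a call against it. A second F2R probe differed by -0.26 (adjusted p = 0.48) and was not called. MMP2, a matrix protease, differed by -0.67 ± 0.24 (SE, adjusted p = 0.13) and COL1A1, the main fibrillar collagen, by -0.15 ± 0.23 (SE, adjusted p = 0.76). The summed level of the 21 smooth muscle genes (the 75th percentile probe of an array being 1) was 654 to 912 at day 4, 465 to 879 at day 7 and 162 to 800 in controls, so it also varied between animals of one group. The part of these levels in the other differences was not tested. KDR (-1.32 to -0.97) lost its call without day 7 animal 2, NEFM (-1.51 to -1.13) without day 4 animal 1 or day 7 animals 2 and 4, F2R (-1.40 to -0.83) without day 4 animal 1 or day 7 animals 1 and 2, and BMP2 (-1.36 to -0.98) without day 4 animals 1 and 3 or day 7 animals 1 and 4.

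**Figure D3:**
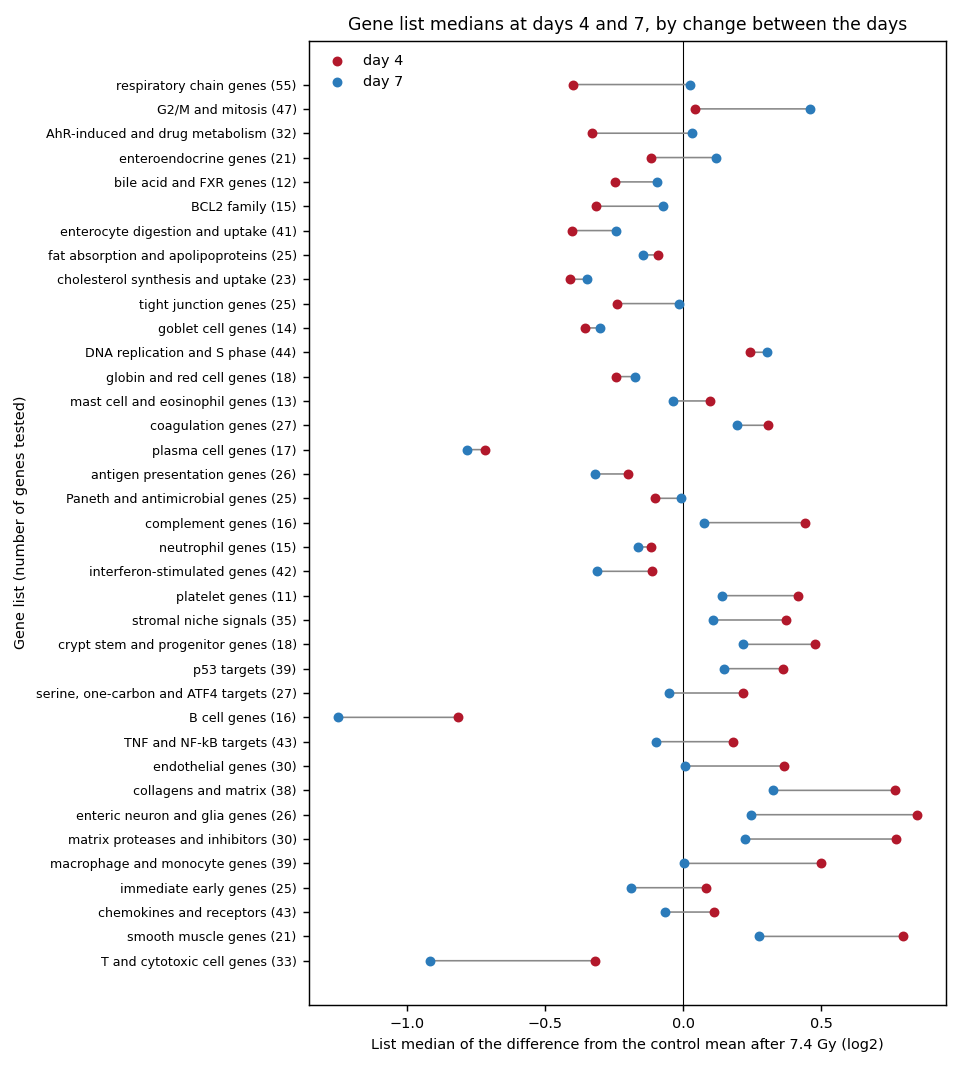
Median over the tested genes of each list of the difference from the control mean (log2, horizontal axis), at day 4 and day 7 after 7.4 Gy, with lists ordered by the median change between the days. Stromal, muscle and macrophage lists moved down toward 0, respiratory chain genes moved up to 0.02, and the T and B cell lists moved further below 0.

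Of the 28 falling probes newly below the controls at day 7, 13 had an established gene name, among them GPRC5A, PRKCQ, PRDM1, BCL2A1, GPR15, ICOS, GPR18, UNC13D, GPR183, SLC6A19, SAMSN1 and P2RY10. Of those listed, PRDM1, UNC13D and the called PRKCQ probe went from at or above the control mean at day 4 to below it, and the others were below it on both days. ICOS, a co-stimulatory receptor of activated T cells, measured -2.71, -3.11, -3.33 and -2.95 in controls, -3.79, -3.51, -3.46 and -3.44 at day 4 and -4.01, -5.32, -5.41 and -4.78 at day 7. Every day 4 animal was already below every control and every day 7 animal below every day 4 animal. The change between days was -1.33 ± 0.31 (SE, adjusted p = 0.022) and day 7 was -1.85 from controls (adjusted p = 0.0043), whereas the day 4 difference of -0.52 missed the test. UNC13D, needed to release cytotoxic granules, measured 2.03, 1.39, 0.77 and 1.06 at day 4 and -0.21, 0.02, 0.39 and 0.37 at day 7 and changed by -1.17 ± 0.23 (SE, adjusted p = 0.0096) from a day 4 mean at the control level (0.05).

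GPR183, GPR18, P2RY10, SAMSN1 and BCL2A1 moved further below the control mean. GPR183 measured -1.87, -2.47, -2.21 and -1.14 in controls, -2.50, -2.62, -2.50 and -2.39 at day 4 and -3.64, -3.39, -4.13 and -3.47 at day 7, with no overlap between the days, and changed by -1.15 ± 0.24 (SE, adjusted p = 0.011) to -1.73 from controls. GPR18 and P2RY10, G protein-coupled receptors of lymphocytes, changed by -1.19 ± 0.28 (SE, adjusted p = 0.022) and -1.01 ± 0.26 (SE, adjusted p = 0.036). SAMSN1, a lymphocyte adaptor, changed by -1.03 ± 0.27 (SE, adjusted p = 0.036). BCL2A1, a survival gene of white cells and an NF-kB target, measured -2.75, -2.47, -2.80 and -2.96 at day 4 and -4.61, -3.83, -3.78 and -4.54 at day 7 against -2.64 to -1.36 in controls, and changed by -1.44 ± 0.30 (SE, adjusted p = 0.011). A second BCL2A1 probe differed by -1.17 (adjusted p = 0.088) and was not called. PRDM1, the transcription factor Blimp-1 of plasma cells and mature epithelium, changed by -1.48 ± 0.23 (SE, adjusted p = 0.0023) and went from 0.41 to -1.06 relative to controls. TLR10, a receptor of B cells, was, of the 340 probes called between the days, the one called below controls on both days, and it measured -3.64, -3.51, -3.73 and -3.16 in controls, -6.07, -5.43, -5.93 and -5.08 at day 4 and -7.80, -6.45, -7.16 and -7.25 at day 7. It changed by -1.54 ± 0.35 (SE, adjusted p = 0.021), with 2 of 4 arrays well above background at day 4 and 1 of 4 at day 7. All 4 control arrays were well above background, but both groups compared were dim. The size and test of the TLR10 fall between the days therefore rest on dim signals. PRKCQ, a protein kinase C of T cells, was called on one of its 3 probes (-1.64), while the brightest gave -0.87 ± 0.14 (SE, adjusted p = 0.0027) and the other -0.47. GPR15, a gut homing receptor, was called on 1 of 6 probes (-1.37), its brightest probe differed by 0.17, and the other 4 differed by -1.61 (adjusted p = 0.053), -0.70, -0.57 and -0.27 without a call.

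GPRC5A, a retinoic acid-induced receptor of epithelia, had the largest fall among the probes newly below the controls. It measured 0.44, -1.32, -1.46 and -0.96 in controls, -1.18, -2.18, -0.56 and -1.02 at day 4 and -3.68, -4.41, -2.74 and -3.71 at day 7, so day 4 overlapped the controls and day 7 lay below both. The change was -2.40 ± 0.42 (SE, adjusted p = 0.0045), a 5.29-fold drop to -2.81 from controls (adjusted p = 0.0017). SLC6A19, the neutral amino acid transporter of the brush border, changed by -1.08 ± 0.24 (SE, adjusted p = 0.018) and ended -1.34 from controls, a fall among 4 rises in the enterocyte list. MSN, the membrane linker moesin, changed by -0.85 ± 0.18 (SE, adjusted p = 0.013), under the 2-fold limit, and was called below controls at day 7 (-1.02). EDN2, a vasoconstrictor peptide, went from 0.87 to -0.85 relative to controls with neither called, and changed by -1.73 ± 0.33 (SE, adjusted p = 0.0085).

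Over the T and cytotoxic cell list, 2 of 33 genes fell (6.06%) where 0.386% of all genes did, and the median was -0.62. Differences were below 0 for 28 of 33, where 48.8% of all genes had differences above 0. Relative to controls the list median was -0.32 at day 4 and -0.92 at day 7. None of the 33 was called below controls at day 4 and 7 were at day 7, against 0.827% and 0.568% of all genes. CD3E, part of the T cell receptor complex, differed by -0.65 ± 0.23 (SE, adjusted p = 0.12). None of 16 B cell genes was called between days (median -0.33), but 2 were called below controls at day 4 and 5 at day 7, where 0.827% and 0.568% of all genes were. MS4A1, the B cell antigen CD20, was well above background on none of the day 4 arrays and on 1 of the day 7 arrays, and on all 4 control arrays. Of 17 plasma cell genes only PRDM1 fell, with a median of -0.16. None of 15 neutrophil genes (median -0.23), 13 mast cell and eosinophil genes (-0.13), 11 platelet genes (-0.26) or 18 globin and red cell genes (-0.06) was called. HBB, the beta globin gene, was far below controls at both days (-5.88 and -7.57), and its difference between days of -1.69 ± 0.62 (SE, adjusted p = 0.14) missed the test.

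GPRC5A, BCL2A1, PRDM1 and EDN2 stayed called without any one of the 8 animals, GPR183 (-1.25 to -0.997) lost its call without day 7 animal 3 and UNC13D (-1.35 to -0.93) without day 4 animal 1. ICOS (-1.62 to -1.15) lost it without day 4 animals 3 and 4 or day 7 animals 2 and 3, TLR10 (-1.78 to -1.33) without day 4 animal 4 or day 7 animals 1 and 3, GPR18 (-1.33 to -0.81) without day 4 animals 1, 2 and 4 or day 7 animal 4, SLC6A19 (-1.22 to -0.94) without day 4 animal 3 or day 7 animals 1 and 4, P2RY10 (-1.13 to -0.90) in 7 of 8 such fits and SAMSN1 (-1.09 to -0.90) in all 8. With normexp background correction of the median spot signal, which changes both the input signal and the correction, 6 probes in place of 30 were newly beyond the controls, and BCL2A1, ICOS, GPR183, GPR18, P2RY10, SAMSN1, SLC6A19 and TLR10 kept their direction but lost the call. The size of these falls depended on the setting. Over all settings run, the smallest was -0.57 for BCL2A1, -0.55 for ICOS, -0.68 for GPR183 and -0.41 for GPR18. It was -0.43 for P2RY10, -0.75 for SAMSN1, -0.91 for SLC6A19 and -0.11 for TLR10.

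The same contrast after 6.7 Gy shares no array with that after 7.4 Gy. Its day 4 arrays sat at slide positions 1 and 2 and its day 7 arrays at position 3, so day and position cannot be told apart at this dose either. At the lower dose 88 of 36108 probes rose and 40 fell between days 4 and 7 (0.244% and 0.111%). All 214 probes that rose after 7.4 Gy also had positive differences after 6.7 Gy, where 58.8% of all probes did, with a median of 0.86, and 36 of them were called there. Of the 126 that fell, 112 (88.9%) had negative differences after 6.7 Gy, where 41.2% of all probes did, with a median of -0.69, and 24 were called. FUT2 rose by 2.11 after 6.7 Gy and GDF15 fell by 2.16, close to the values after 7.4 Gy. The 28 falling probes newly below the controls had a median of -0.28 after 6.7 Gy against -1.24 after 7.4 Gy, with 21 of 28 below 0. Among the 28, PRDM1 was called after 6.7 Gy (-1.14, adjusted p = 0.025 in limma), while GPRC5A (-1.03) and BCL2A1 (-0.94) were not. ICOS differed by -0.24, GPR183 by -0.34 and GPR18 by 0.05 after 6.7 Gy, and TLR10, which is outside the 28, by -0.13. A test of the difference between the doses called 0 of 36108 probes (0%) in limma, with 351 at an unadjusted p under 0.05 and 2-fold or more (59 with a higher and 292 with a lower difference at 7.4 Gy). A difference between the doses is therefore not shown for any of these genes.

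**Figure D4:**
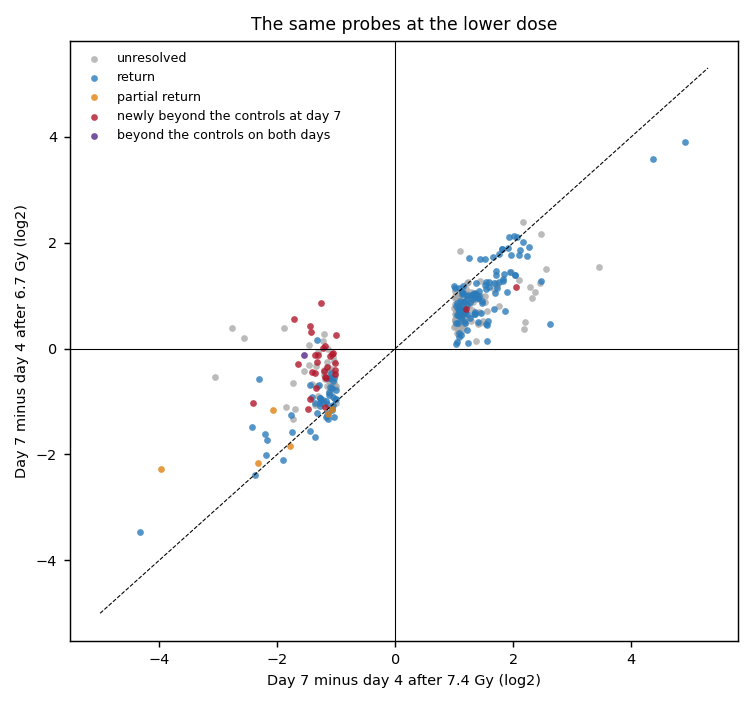
The 340 probes called between days 7 and 4 after 7.4 Gy, with that difference on the horizontal axis and the same difference after 6.7 Gy, in other animals, on the vertical axis (both log2). The dashed line marks equal differences. All 214 rising probes lie above 0 at 6.7 Gy, and the falling probes newly below the controls at day 7 (red) had a median of -0.28 at 6.7 Gy.

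In the 2 animals killed at day 12 after 7.4 Gy, the rising probes had a median of 0.18 and the falling probes -0.19 relative to controls, given as values with no test. GDF15 measured 0.97 and 0.99, still above all 4 controls and near the lowest day 7 animal. LCN15 measured -5.33 and -4.38, at the upper end of the control range or above it. ICOS measured -4.02 and -4.22 and GPR183 -3.04 and -2.73, both below all controls. Of the 28 falling probes newly below the controls at day 7, 4 had a day 12 mean within the control range. CYP1A1, a cytochrome induced by dietary and microbial ligands, ranged from -6.36 to 5.65 at day 4 and from -6.11 to -0.56 at day 7, and these ranges overlapped.

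Many of the changed probes carry no usable name. Of the 214 rising probes, 85 had no gene symbol and 31 a locus number alone, and of the 126 falling probes 48 and 7. The 3 largest rises, of 4.91, 4.36 and 3.45, and one of the largest falls (-3.06) were on probes without a symbol. MAMU-A, a class I histocompatibility gene with many similar copies, was called lower on one probe (-2.77), while its brightest probe differed by -0.55 ± 0.26 (SE, adjusted p = 0.26). MYL5, CATSPERG, MCOLN3 and JAKMIP2 were called on a dim probe (-2.31, -1.90, -1.77 and -1.72) and not on their brightest probe (-0.50, -0.84, -0.74 and -0.79), so their falls depend on the probe read.

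Other lists held few or no called genes, to be read beside the 0.666% of all genes that rose and the 0.386% that fell. None of 18 crypt stem and progenitor genes (median -0.27) or 16 complement genes (-0.20) was called. One gene was called in each of several lists, a share above that of all genes but resting on a single gene. Lower were LCN15 among 25 Paneth and antimicrobial genes (4%, median -0.17), BMP2 among 35 stromal niche signals (2.86%, -0.26) and F2R among 27 coagulation genes (3.7%, -0.14). Higher were ALDH1L2 among 27 serine, one-carbon and ATF4 genes (3.7%, -0.32) and PSMB9, an immunoproteasome subunit, among 26 antigen presentation genes (3.85%, -0.16). Of 32 genes of drug metabolism, CYP2D6 and GSTA1 rose (6.25%) and CYP1B1 fell (3.12%), with a median of 0.30. Of 15 BCL2 family genes BCL2L14 rose and BCL2A1 fell (6.67% each), with a median of 0.16. The calls of PSMB9 (0.93 to 1.22), CYP1B1 (-1.30 to -0.82) and GDA (1.25 to 1.72) each stayed in only 1 of the 8 fits with an animal left out, for PSMB9 and GDA that without day 7 animal 4 and for CYP1B1 that without day 4 animal 4. A second PSMB9 probe differed by 0.93 and was not called.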

How the data were processed

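Ileum RNA of 24 rhesus macaques was labelled with Cy3 and hybridised to one-colour Agilent arrays, 4 per slide on 6 slides. Per the file headers, Agilent Feature Extraction 11.0.1.1 gave each spot an intensity, and the authors deposited that processed signal intensity, which already is background-subtracted. The authors also deposited a log2 table scaled to the 75th percentile, used here as an alternative. A raw signal table equalled the scanner values for all 43553 probes with 1 spot. Gene names came from the files, and 8317 probes were matched by accession to RefSeq.

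From the intensities, log2 values minus each array's 75th percentile were computed, control spots were left out and repeated spots averaged (43603 probes, none saturated). A probe entered the fit if some group had it well above background throughout, which left 36108 probes. Limma 3.58.1 in R 4.3.3 fitted a mean for each of the 7 groups over all 24 arrays, with 17 residual degrees of freedom. Adjusted p-values are Benjamini-Hochberg over all 36108 probes, and a call needed an adjusted p under 0.05 and 2-fold. The median standard error of a difference was 0.20, and precision is limited by how many arrays there are. A gene is read on its brightest tested probe. The step was tested on simulated data.

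Genes were named by rule: the 12 largest called rises and falls with no overlap between days, up to 3 called genes of each of 39 lists, a fixed panel, and the 5 largest in each direction among probes newly beyond the controls at day 7. TLR10, GPR183, GPR18, P2RY10, SAMSN1, UNC13D, DDB2, CH25H, DARC, FGFBP1, KLF5, NLRP6, CA12, MAMU-A, CAT, IDH1, ZMAT3 and GADD45A were picked outside these ranks, or described more fully, after their values were seen. The comparison, the lists and the panel were chosen with earlier results of these data known. Replicates are separate animals. Of the panel, MKI67, APOA4 and CD163 had no named tested probe. No genome of the array design's build was used, so no coordinates or sequences are given. Some results are not reported here.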

Additional observations from a re-analysis of the deposited data

Results flagged for a closer look

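In 20 of 276 groups of 4 animals (7.25%), over the named genes, one animal lay far from the other 3, where chance flags about 5% (1 in 20). The gap to the nearest animal is given as a share of the group's range, past the 95% limit of Dixon's test, beside the level of the animal and of its nearest neighbour (log2). NXNL1 was lowest in control animal 2, at -4.76 against -3.58, a share of 0.857. TMEM211 was highest in control animal 1, at -3.94 against -6.79, a share of 0.967. MYL5 was lowest in control animal 1, at -3.47 against -0.47, a share of 0.918. GDA was highest in control animal 1, at 3.20 against 1.82, a share of 0.934. DARC was lowest in control animal 1, at -0.67 against 0.01, a share of 0.866. CST6 was highest in day 4 animal 3, at 3.30 against 2.30, a share of 0.889. PSD2 was highest in day 4 animal 2, at -2.16 against -2.35, a share of 0.876. SLC6A19 was highest in day 4 animal 3, at 1.35 against 1.05, a share of 0.854. BMP2 was highest in day 4 animal 1, at 2.33 against 1.69, a share of 0.953. F2R was highest in day 4 animal 1, at -1.11 against -1.60, a share of 0.863. VIL1 was lowest in day 4 animal 1, at 2.10 against 2.63, a share of 0.865. HBB was highest in day 4 animal 1, at -2.24 against -4.45, a share of 0.897. NLRP6 was lowest in day 4 animal 1, at -1.69 against -1.16, a share of 0.943. CCL2 was lowest in day 7 animal 3, at -2.54 against -1.43, a share of 0.949. OASL was lowest in day 7 animal 4, at -2.70 against -1.55, a share of 0.922. GDA was lowest in day 7 animal 4, at 1.86 against 2.61, a share of 0.871. CCL19 was lowest in day 7 animal 3, at -1.60 against -0.18, a share of 0.863. GPR18 was lowest in day 7 animal 4, at -5.68 against -4.19, a share of 0.953. IDH1 was lowest in day 7 animal 2, at 3.71 against 3.88, a share of 0.844. ZMAT3 was lowest in day 7 animal 2, at -3.52 against -3.14, a share of 0.893. Day 4 animal 1 appears for BMP2, F2R, VIL1, HBB and NLRP6. Without it VIL1, BMP2 and F2R lost their calls and NLRP6 kept its call. CCL2 lost its call without day 7 animal 3, GPR18 and OASL without day 7 animal 4.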

How the results depend on the processing

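Of 340 called probes (214 higher, 126 lower), normexp on the median spot signal, which changes both the input and the background correction, left 212, with 61 lower, 107 returns or partial returns in place of 161 and 6 in place of 30 newly beyond the controls at day 7. A fit of the 8 arrays alone called 198 (115 and 83). The methods' t-test called 29 (12 and 17) after Benjamini-Hochberg adjustment and 598, with 287 lower, unadjusted. Slide as a fixed block called 197, with 110 higher, 90 returns or partial returns and 13 newly beyond the controls, and the 2 slides that held both days gave 0 calls (0 and 0). With no fold limit 1370 were called (836 and 534). Within scan day 1, an alternative chosen after seeing the data, 3 were called (1 and 2). Quantile normalization, the deposited table, the other filters, a trended fit, slide as a random block and scan day as a block gave 281 to 384. Of the 340 probes, 339 kept their direction under normexp and 340 under quantile normalization. The test between doses called 0 under every setting in which it was run. List medians also varied over the settings: -0.68 to -0.20 for T and cytotoxic cells, -0.51 to -0.19 for TNF and NF-kB targets and -0.44 to -0.12 for complement. Those of enterocyte digestion (-0.03 to 0.32) and fat absorption (-0.12 to 0.26) changed sign, while mitosis (0.27 to 0.47) kept its sign.

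With one animal left out, calls ranged from 176 to 376 (96 to 257 higher and 80 to 148 lower), returns or partial returns from 69 to 198, and probes newly beyond the controls from 16 to 30. The lowest total was without day 4 animal 1. A replicate block called 0 probes (0 and 0). The numbers name different animals, and deviations of same-numbered animals correlated at -0.0281, -0.178, -0.114 and -0.0829, so they pair nothing.

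Single genes that changed sign were not called: on the 2 shared slides CXCL10 gave 0.062, CYP1A1 2.65 and OLFM4 0.61, and GPR15 gave -0.72 as a mean of its probes. With one animal left out CYP1A1 ranged from -2.59 to 1.41 and MS4A1 from -0.38 to 1.72. Of the 59 called named genes, 24 kept their call without any one of the 8 animals.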
